A study of Mus musculus with 6 samples.

Results

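Along chromosome 9 of the mouse, 202 genes from Kmt2a to Mto1 were mostly a little lower in H10 than in C8 cells. H10 and C8 are lines derived from RAW264.7 mouse macrophage-like cells that carried a stable Lifeact-mEGFP construct with puromycin resistance. H10 cells fused into large multinucleated osteoclasts and C8 cells did not. Both lines were grown from clones isolated by limiting dilution, and there is only 1 line of either phenotype. Before RNA was extracted, both were cultured for 2 days with purified recombinant sRANKL at 60 ng/mL, the cytokine that drives osteoclast differentiation, and 3 Affymetrix arrays were made from each. No source states whether a line's 3 arrays were made from different dishes, so the spread between them may be technical. All values below are log2 RMA values, and a log2 difference is the mean of the 3 H10 arrays minus the mean of the 3 C8 arrays.

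The stretch was chosen by its readout. It was set on a low difference between the lines over neighbouring genes. Every difference, count and median of its members in this contrast is therefore a description and was not tested. Bright genes before Kmt2a were low as well, so the low values do not begin at that end. Of 19930 genes with an unambiguous feature on the array, 340 start in the stretch in the order of the mouse assembly GRCm38.p6. The members were the 202 of them whose brightest feature had a mean above the median of the whole table, 7.70. Another 134 genes were dimmer, and Smad3, Smad6, Il10ra and Cgas were left out. Gm10658 and Hspb2, with mean log2 values of 7.68 and 7.70, were the nearest genes under the brightness limit, and their log2 differences were both -0.09. The dimmest members, 1700036A12Rik and Dnaja4, both had a mean of 7.74, and their log2 differences were 0.04 and 0.00.

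Genes that lie side by side on a chromosome usually have unrelated functions and their own promoters. They are nevertheless gained or lost together when a piece of a chromosome changes in copy number, and large blocks of chromatin can be silenced or opened together. DNA copies and chromatin were not measured here, so their part in the values below was not tested. Since RNA was measured in bulk cultures, fewer cells expressing a gene and less RNA per cell cannot be told apart.

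The arrays were alike in level. Over all features, the median of an array lay between 7.69 and 7.72 for H10 and between 7.65 and 7.74 for C8. Of 9 macrophage markers, 8 had a mean over the 6 arrays above the table median, among them Cd68 at 13.63 in H10 and 13.59 in C8. The F4/80 gene Adgre1 was at 9.58 in H10 and 7.56 in C8, and the integrin gene Itgam at 9.59 and 9.08. The high-affinity Fc receptor gene Fcgr1, at 7.76 and 7.20, had a mean under the table median. The part of these marker differences in the values of the stretch was not tested. All 6 osteoclast markers were above it, and the cathepsin K gene Ctsk was at 12.69 in H10 and 9.12 in C8. Markers of T cells (1 of 5 above the median), B cells (0 of 2 measured), fibroblasts (3 of 3) and epithelial cells (1 of 3) reached at most 8.08, 5.68, 8.61 and 8.64. The only T cell marker above the median was Cd3e, itself a member of the stretch.

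The typical member was lower in H10 cells by a modest step. The median log2 difference over the 202 members was -0.35, or 0.785-fold, with quartiles of -0.46 and -0.19. With no brightness limit the median over the genes of the stretch was -0.18. Among the members, the difference was negative in 182 members, positive in 19 and zero in Dnaja4. Nxpe4 and Fdx1 had H10 means of 7.61 and 7.66, under the table median. They passed the brightness limit through C8 alone, so they had to be lower in H10. Among 10984 genes brighter than the table median elsewhere, the median was -0.03 with quartiles of -0.10 and 0.06. Of the members, 131 (64.9%) had a log2 difference between -0.6 and -0.2, and 19 members were lower still. The share between -0.6 and -0.2 was 9.04% of the genes elsewhere, and 16.7% of the 419 among them on chromosome 9. The medians of the other 19 chromosomes measured lay between -0.04 and -0.01.

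The shift was present on every array. The median deviation of the members from their own means over the 6 arrays was -0.16, -0.19 and -0.16 for H10 replicates 1 to 3, and 0.23, 0.14 and 0.14 for C8 replicates 1 to 3. Genes elsewhere had 0.00, -0.02 and -0.01 in H10, and 0.06, -0.02 and -0.01 in C8, so C8 replicate 1 stood a little above the other C8 arrays for genes of both kinds.

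**Figure D1:**
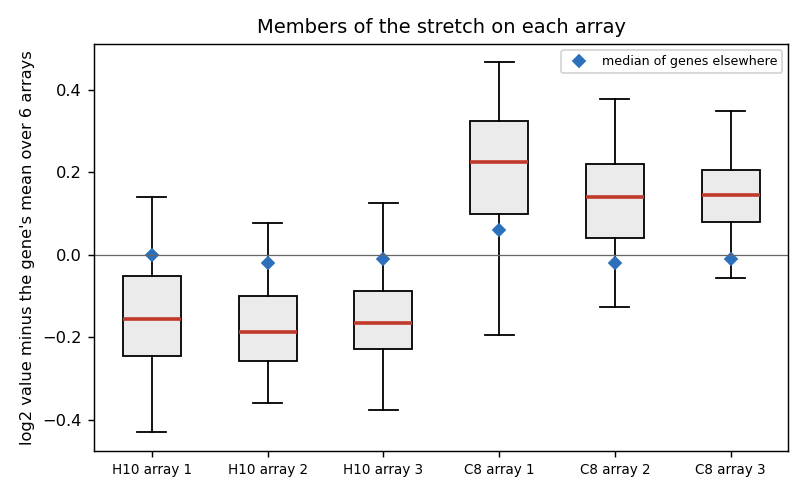
Log2 values of the 202 members on each array after each gene's mean over the 6 arrays was subtracted. Boxes span the quartiles, the red line is the median, whiskers reach from the 5th to the 95th percentile, and blue diamonds are the medians of genes elsewhere; the members' medians are negative on each H10 array and positive on each C8 array.

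Gene by gene, the lines were apart in most members. All 3 H10 values lay under all 3 C8 values in 148 members (73.3%) and above them in 8 (3.96%), and the lines overlapped in the rest. Over all 11186 genes as bright that were tested, the lines were apart in these directions in 16.5% and 11.2%. The 148 include Nxpe4 and Fdx1, which passed the brightness limit through C8 alone. In limma, fitted over all 35545 features with the Benjamini-Hochberg adjustment, 63 members (31.2%) were lower and 3 (1.49%) were higher at an adjusted p under 0.05, against 1.67% and 2.94% of the genes as bright. Since the contrast had already chosen the stretch, nothing is read from these counts. They also changed with the arrays that were used. The 63 became 20, 11 and 7 without H10 replicates 1, 2 and 3, and 30, 16 and 17 without C8 replicates 1, 2 and 3. The 3 became 1 without H10 replicate 1, H10 replicate 3 or C8 replicate 3. The median over the members stayed between -0.37 and -0.32 when any array was left out.

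The median of neighbouring bright genes changed more at the distal end of the stretch than at the proximal end, though single genes outside both ends were lower in H10. Kmt2a, a histone H3 lysine methyltransferase, opens the stretch. The arrays read 10.29, 10.07 and 10.22 in H10 and 10.71, 10.70 and 10.52 in C8, a difference of -0.45. The next members were Atp5l, a subunit of ATP synthase, at -0.20, and the ubiquitin ligase gene Ube4a at -0.37. Before Kmt2a the bright genes were lower in H10 as well: Phldb1 at -0.49, Ift46 of the ciliary transport machinery at -0.53, and Arcn1 of the COPI vesicle coat at -0.25, though the adjacent Ttc36 and Tmem25 had -0.01 and -0.13. The 60 bright genes from Tirap up to Ttc36, which lie before Kmt2a, had a median of -0.29, and 52 of them were negative. The 20 genes before Tirap had a median of -0.08, but those nearest to Tirap were mostly low too. Snx19 had -0.33, Zbtb44 -0.48, Nfrkb -0.55, Fli1 -0.55, St3gal4 -0.42 and Dcps -0.54. From Snx19 to Dcps only Aplp2 at 0.12 and Kirrel3 at 0.22 were positive. The low values therefore do not begin at Tirap.

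At the far end, Mto1, an enzyme that modifies mitochondrial tRNAs, had log2 values of 10.55, 10.51 and 10.59 in H10 and 11.20, 11.17 and 11.14 in C8, a difference of -0.62. The member before it, the RNA helicase gene Ddx43, had -0.83, and the oocyte gene Ooep before that had -0.10. The next bright genes after Mto1 were the translation elongation factor gene Eef1a1 at -0.10, the lysosomal sialic acid transporter gene Slc17a5 at 0.00, and Cd109, a co-receptor of TGF-β, at 4.19. Cox7a2 at -0.16, Tmem30a at -0.27, Senp6 at -0.55 and Htr1b at 0.93 followed. In Eef1a1, Cox7a2 and Tmem30a the H10 values lay under the C8 values without overlap. The 60 bright genes after Mto1 had a median of 0.01, and 27 of them were negative. The stretch was set on this contrast, so these values stand as a description.

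**Figure D2:**
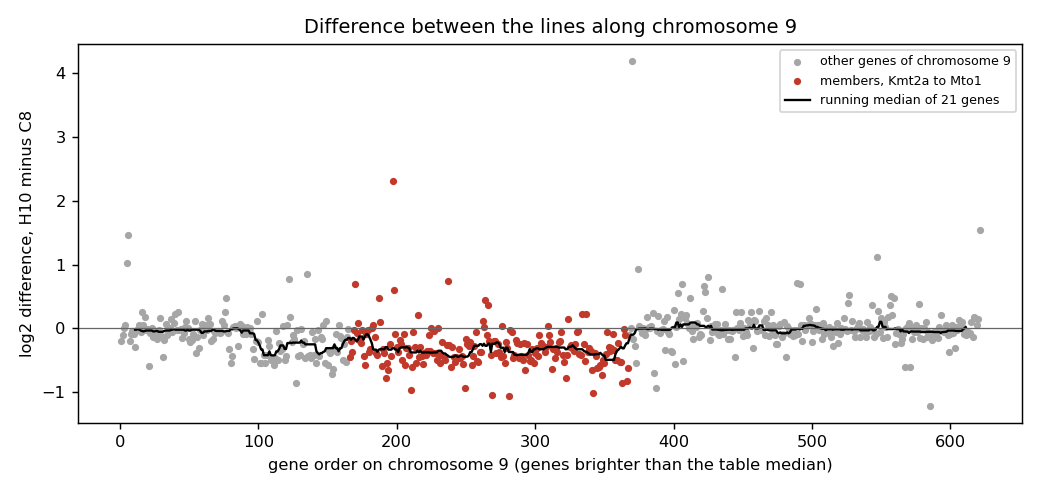
Log2 difference, H10 minus C8, of every bright gene of chromosome 9 in gene order, with members in red and a running median of 21 genes as a black line. The line drops well before the members begin, stays under zero across them, and returns to zero just past their end.

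Inside the stretch the medians of neighbouring members were negative from end to end, and the shift was weakest at the head. In 10 consecutive blocks of about 20 members the median lay between -0.45 and -0.18. It was nearest to zero in the block from Kmt2a to Bud13, which holds the apolipoprotein genes Apoa1, Apoa4 and Apoa5, and lowest in the block from Ccpg1 to Mto1. In the block from Kmt2a to Bud13 the lines were apart downward in 11 of 21 genes. The longest run of members with a negative difference held 32 genes, from Uaca to Spg21.

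Members that were dim on the array showed little of the difference at their median, though some were as low as brighter ones. The 34 members with a mean level up to 8.5 had a median of -0.08 with quartiles of -0.28 and -0.01, and 26 of them were negative. Prtg at -0.58 and Lrrc1 at -0.49 were among them and passed the limma threshold, as did Mpzl3 at 0.69 in the other direction. The 134 genes of the stretch under the brightness limit had a median of -0.03, which was the median of equally dim genes elsewhere too. Between levels of 8.5 and 12.5 the medians of the members were -0.37, -0.44, -0.41 and -0.37 in steps of 1 log2 unit. The 22 members above 12.5 had a median of -0.23, and genes elsewhere in these bands had medians between -0.03 and 0.00. Features near the array's background and near its upper end respond less to RNA amount as a rule, and whether that accounts for the smaller values at both ends was not tested. Apoa1, an apolipoprotein gene of liver and intestine, was such a dim member, and its values of 7.90, 7.96 and 7.82 in H10 and 7.70, 7.99 and 8.00 in C8 overlapped.

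**Figure D3:**
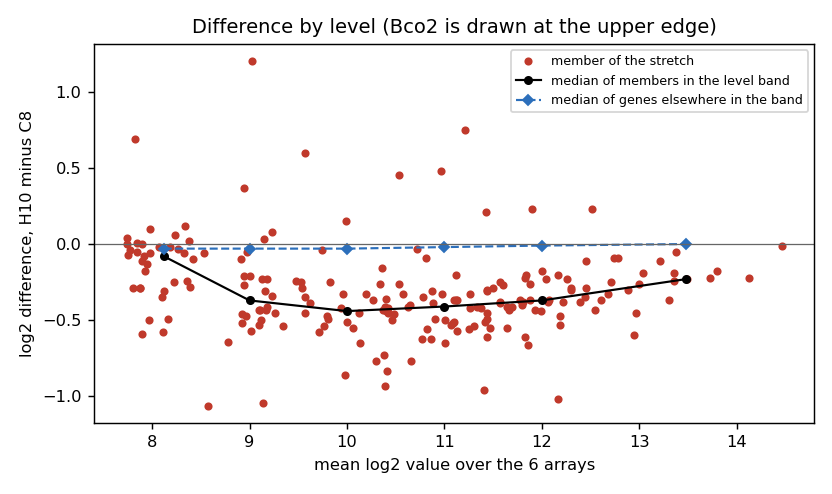
Log2 difference of each member against its mean log2 level over the 6 arrays, with medians in bands of level for members (black) and for genes elsewhere (blue). The black line is at -0.08 below a level of 8.5 and at -0.44 to -0.37 between 8.5 and 12.5, while the blue line stays between -0.03 and 0.00; Bco2 lies beyond the axis and is drawn at its upper edge.

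The members varied among themselves, and many did so within their error. The median standard error of a member's difference was 0.08. The 95% interval of the difference held the median of the stretch in 132 members, lay under it in 29 and above it in 41. Of those 41, 22 had a mean level over 8.5 and 9 of these had one over 12.5. Several features of 1 gene could also be set side by side. Dennd4a, an activator of RAB GTPases, had 8 further features with differences of -0.69 to -0.52 beside -0.54 for its brightest, and the lines were apart in all 8. Myo9a, an unconventional myosin, had 12 further features from -0.53 to -0.22 beside -0.37, and the lines were apart in 8 of the 12. Over 42 further features of 15 members, 38 had the sign of the brightest one, and their median was -0.36. The 5 further features of Atp5l had -0.28 to -0.22. Any feature of Atp5l, the brightest included, may share probes with copies of the gene elsewhere, which was not tested. The same may hold for other members with several features.

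The 12 members with the most negative differences and no overlap between the lines had varied functions. Paqr5, a membrane progestin receptor, had log2 values of 8.09, 8.11 and 7.92 in H10 and 8.64, 9.29 and 9.38 in C8, a difference of -1.06 (standard error 0.20). Bbs4, a subunit of the BBSome that carries cargo to cilia, had 8.78, 8.59 and 8.51 in H10 and 9.92, 9.69 and 9.38 in C8, a difference of -1.04 (standard error 0.15). Adam10, a membrane protease that sheds the ectodomains of Notch, cadherins and many receptors, had 11.42, 11.80 and 11.73 in H10 and 12.31, 12.85 and 12.85 in C8, a difference of -1.02 (standard error 0.18). All 3 genes were about 1 log2 unit lower in H10, beyond the shift of their neighbours. A neighbour here and below is the nearest gene brighter than the table median, and dimmer or left-out genes may lie between. Kif23 and Glce beside Paqr5 had -0.30 and -0.03, Adpgk and Arih1 beside Bbs4 had -0.41 and -0.19, and Polr2m beside Adam10 had -0.38. Mindy2, a deubiquitinase gene on the other side of Adam10, was itself among the 12 at -0.65, and its further feature had -0.95. Paqr5 and Mindy2 did not pass the threshold of the limma fit, and the other members of the 12 did.

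The salt-inducible kinase gene Sik2 had 10.73, 11.05 and 11.00 in H10 and 11.67, 12.01 and 11.98 in C8, a difference of -0.96. Ppcdc, an enzyme of coenzyme A synthesis, had 9.95, 9.89 and 9.94 in H10 and 11.01, 10.77 and 10.79 in C8, a difference of -0.93. Cilk1, a kinase that regulates cilia, had 9.51, 9.58 and 9.57 in H10 and 10.57, 10.32 and 10.36 in C8, a difference of -0.86. In each of these genes the gap between the lines was wider than the range within either line. The remaining ones were Ddx43 at -0.83, Gm5617 and the carbonic anhydrase gene Car12 both at -0.77, the ER-phagy receptor gene Ccpg1 at -0.73, and Snord16a at -0.66. Snord16a is a small nucleolar RNA from an intron of the ribosomal protein gene Rpl4, whose own difference was -0.23.

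Against the direction of the stretch, 8 members were higher in H10 with no overlap between the lines. Bco2, a mitochondrial enzyme that cleaves carotenoids, stood alone in size. The arrays read 9.99, 10.24 and 10.33 in H10 and 8.22, 7.64 and 7.77 in C8, a difference of 2.31 (standard error 0.17), or 4.96-fold. The C8 values were close to the table median, so the size of the difference is uncertain. The nearest bright gene on one side of Bco2 is Pts, an enzyme of tetrahydrobiopterin synthesis, at -0.43. On the other lies Il18, the interleukin-18 cytokine gene, with 9.71, 10.08 and 9.82 in H10 and 9.67, 9.22 and 8.93 in C8, a difference of 0.60 (standard error 0.20). The next bright gene, Sdhd, was back at -0.09.

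Pstpip1, an F-BAR adaptor that binds actin regulators and pyrin, had 11.61, 11.55 and 11.61 in H10 and 11.04, 10.63 and 10.84 in C8, a difference of 0.75 (standard error 0.11). Its neighbours Rcn2 and Tspan3 were both at -0.26. Mpzl3, an adhesion protein of the immunoglobulin superfamily, had 8.31, 7.95 and 8.25 in H10 and 7.57, 7.30 and 7.56 in C8, a difference of 0.69 (standard error 0.12). Its C8 values lay under the table median, so it passed the brightness limit through H10 alone and had to be higher there, and the size is uncertain. Pml, the organizer of PML nuclear bodies and a gene that interferons induce, had 10.76, 10.76 and 10.74 in H10 and 10.61, 10.14 and 10.15 in C8, a difference of 0.45 (standard error 0.13), with most of the spread in C8 replicate 1. The other members of this group were the adhesion gene Cadm1 at 0.48, the immune checkpoint gene Cd276 at 0.37 and the calcium-dependent membrane binding protein gene Anxa2 at 0.23. Bco2, Pstpip1 and Mpzl3 were the 3 members past the threshold of the limma fit in this direction. A further 11 members had positive differences with overlapping lines, such as the myosin gene Myo1e at 0.23 and the RNase gene Zc3h12c at 0.21.

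**Figure D4:**
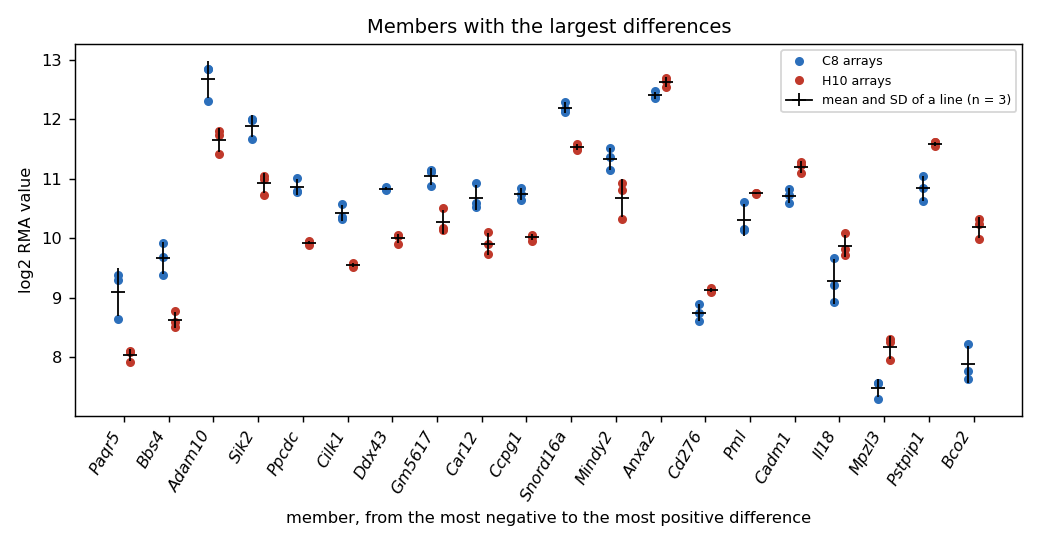
Log2 values of the 12 members with the most negative and the 8 with a positive difference and no overlap between the lines, on each array. Black crosses give the means and SDs per line (n = 3). C8 (blue) lies above H10 (red) from Paqr5 to Mindy2 and under it from Anxa2 to Bco2.

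The promoters of the members ranged widely in CpG content. CpG-rich promoters are typical of genes used in most cells, and CpG-poor promoters of genes regulated by tissue or stimulus. The 250 bases before the start of a member at the head of the stretch, of 1 with a large negative difference, and of 2 that were higher in H10 are shown 5′ to 3′ from RefSeq on GRCm38.p6, with each CpG in capitals.
Kmt2a (chr9:44881290-44881539, - strand): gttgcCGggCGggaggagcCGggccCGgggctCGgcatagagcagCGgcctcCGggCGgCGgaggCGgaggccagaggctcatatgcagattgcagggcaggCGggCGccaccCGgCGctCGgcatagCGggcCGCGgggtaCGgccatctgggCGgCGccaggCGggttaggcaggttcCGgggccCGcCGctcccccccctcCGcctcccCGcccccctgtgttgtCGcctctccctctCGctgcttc
Adam10 (chr9:70678732-70678981, + strand): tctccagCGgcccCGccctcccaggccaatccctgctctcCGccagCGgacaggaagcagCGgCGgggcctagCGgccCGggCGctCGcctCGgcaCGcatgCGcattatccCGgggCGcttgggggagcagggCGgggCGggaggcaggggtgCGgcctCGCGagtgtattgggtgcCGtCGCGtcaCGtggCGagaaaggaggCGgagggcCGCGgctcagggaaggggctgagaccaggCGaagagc
Pstpip1 (chr9:56089726-56089975, + strand): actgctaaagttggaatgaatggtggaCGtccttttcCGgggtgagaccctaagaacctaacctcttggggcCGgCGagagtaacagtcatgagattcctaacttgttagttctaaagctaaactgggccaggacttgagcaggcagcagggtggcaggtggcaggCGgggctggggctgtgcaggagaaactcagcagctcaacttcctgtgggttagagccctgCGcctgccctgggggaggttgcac
Bco2 (chr9:50553663-50553912, - strand): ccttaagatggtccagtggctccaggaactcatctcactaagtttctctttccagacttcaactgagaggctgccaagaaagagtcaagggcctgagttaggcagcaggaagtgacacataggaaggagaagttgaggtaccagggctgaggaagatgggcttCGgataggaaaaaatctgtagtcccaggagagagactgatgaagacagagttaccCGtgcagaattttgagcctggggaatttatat

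The windows of Kmt2a and Adam10 each held 29 CpGs, that of Pstpip1 held 6 and that of Bco2 held 2. RefSeq promoters, here with 50 bases after the start added, were found for 179 of the 202 members. The 131 members with 15 or more CpGs in the window had a median log2 difference of -0.39 (quartiles -0.49 and -0.27), and 126 of them were negative. The 48 members with fewer had a median of -0.20 (quartiles -0.39 and -0.02), and 37 were negative. These 48 were also dimmer, with a median level of 9.36 against 10.77. Among members above a level of 8.5 the medians were -0.41 for 116 CpG-rich and -0.24 for 34 CpG-poor genes, while genes elsewhere had -0.03 and -0.02 over all levels. Of the 8 members higher in H10 with no overlap, 6 had a promoter in the table, and only that of Cd276 reached 15 CpGs.

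Letters of 3 regulatory motifs were searched on both strands of the same windows. The interferon-stimulated response element, GAAA followed by any 2 bases and GAAA again, was in 5 of the 179 members (2.79%), in 3.35% of bright genes elsewhere and in 3.44% of all 32851 promoters. One of the 5 was the Bco2 window printed above, 208 bases before the start, and the window of the other RefSeq start of Bco2 did not hold it. The others were Rpl4, Lactb, Acsbg1 and Tcf12, whose differences were -0.23, -0.33, -0.35 and -0.43. The AP-1 motif TGANTCA was in 6 members (3.35%, against 5.93% and 7.81%), Anxa2 among them. A PU.1 motif, GAGGAAGT, was in 8 (4.47%, against 3.45% and 3.20%), Pml among them. These matches are letters in a window and say nothing of binding.

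Where members encode subunits of complexes, their partners encoded elsewhere gave a comparison within each complex. Among 18 complexes, 20 members had differences from -0.65 to -0.09 with a median of -0.36, all negative. Aph1c, a near copy of the gamma-secretase gene Aph1b and also a member, was not in these lists and had a difference of 0.15. The 82 partner subunits encoded outside the stretch ran from -0.32 to 0.34 with a median of 0.02, and 31 were negative. The member, or the median of 2 members, was under the median of its partners in 18 of 18 complexes. The stretch was chosen for its low values and the partners were not, so this count was largely set beforehand and nothing is read from it. Of the 82 partners, 0 were lower and 1 was higher at an adjusted p under 0.05 in limma, the cytochrome c oxidase gene Cox5b at 0.33 (adjusted p = 0.0401).

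The proteasome core, a barrel that degrades proteins, is an example. Psma4, of the alpha ring of the 20S core, had log2 values of 11.25, 11.16 and 11.17 in H10 and 11.71, 11.68 and 11.67 in C8, a difference of -0.49, and the 6 other alpha subunits had a median of 0.02. Zw10 and Zwilch, of the RZZ complex that recruits dynein to kinetochores, had -0.65 and -0.49, while their partner Kntc1 had 0.09. Gtf2a2, the small subunit of the general transcription factor TFIIA, had 9.78, 9.70 and 9.77 in H10 and 10.22, 10.31 and 10.24 in C8, a difference of -0.51. Its partner Gtf2a1 had a difference of 0.34 (adjusted p = 0.0651 in limma), which missed the threshold. Tipin of the replication fork protection complex had -0.51 beside 0.00 for its partners, Sin3a, the scaffold of a histone deacetylase complex, -0.46 beside 0.00, and Kmt2a -0.45 beside -0.05.

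Members of the other complexes lay nearer to zero. Aph1b of gamma-secretase had -0.41 beside -0.01, and its probes may not separate it from Aph1c, whose lines overlapped. Ints14 of the integrator complex had -0.39 beside 0.01. Leo1 and Wdr61 of the PAF1 elongation complex had -0.34 and -0.38 beside -0.13. Members of mitochondrial complexes lay between -0.27 and -0.09. Cox5a of cytochrome c oxidase was at -0.27 beside 0.04, Clpx of the Clp protease at -0.26 beside -0.02, and Dlat of pyruvate dehydrogenase at -0.25 beside 0.01. Etfa of the electron transfer flavoprotein was at -0.22 beside -0.15, Atp5l at -0.20 beside 0.08, Idh3a of isocitrate dehydrogenase at -0.11 beside 0.05, and Sdhd of succinate dehydrogenase at -0.09 beside 0.12. Gclc, the catalytic subunit of the rate-limiting enzyme of glutathione synthesis, had -0.23 beside 0.07 for Gclm, and the lysosomal hexosaminidase gene Hexa -0.20 beside 0.27 for its activator gene Gm2a. For the COPI coat, which has 0 members inside the stretch, the 8 genes had a median of -0.07.

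**Figure D5:**
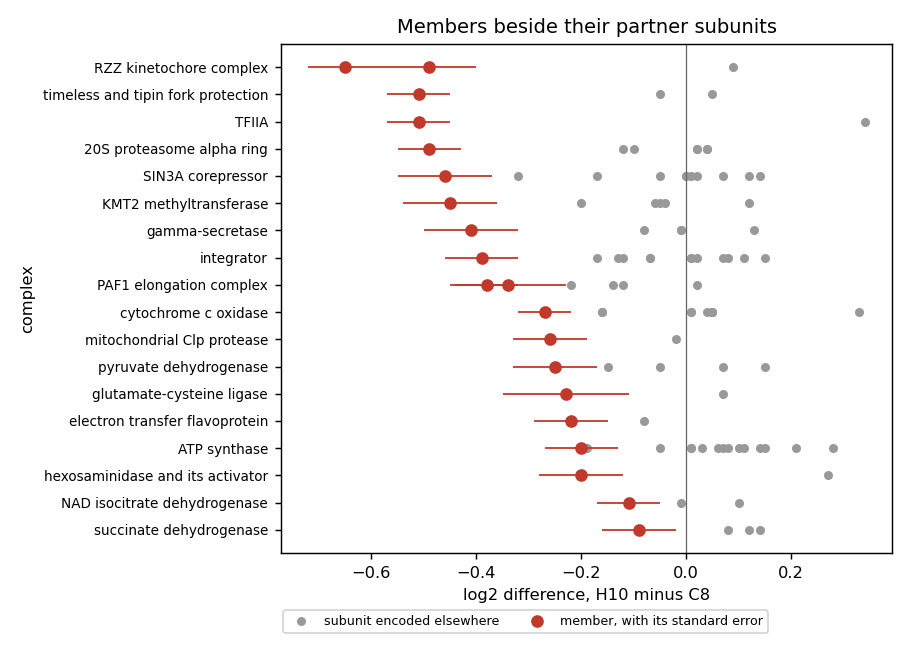
Log2 difference, H10 minus C8, of members (red, bars are standard errors) and of partner subunits encoded elsewhere (grey), by complex. The red points lie left of zero in all 18 complexes and the grey points scatter about it; in the electron transfer flavoprotein, Etfb at -0.22 is hidden under the member Etfa.

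By function, the members spread over the basic work of the cell. The counts that follow stand beside 73.3% of all members with the lines apart downward and 31.2% past the limma threshold, and beside 16.5% and 1.67% of genes as bright, and nothing particular to a list is read from them. A few genes sat in a list without its role, such as the splicing kinase gene Clk3 among DNA repair and mitosis and the mitochondrial RNase gene Rexo2 among transcription and chromatin. In transcription and chromatin, 13 of 13 members were negative, with a median of -0.45 and a range of -0.62 to -0.24. The lines were apart in 12 of them, and 5 were past the limma threshold, among them the zinc finger gene Zfp280d at -0.62 and the RFX factor gene Rfx7 at -0.61. In DNA repair, replication and mitosis, 13 of 13 were negative (median -0.43, range -0.65 to -0.21) and 5 were past the threshold. Atm, the kinase that signals DNA breaks, had values of 10.25, 10.12 and 10.09 in H10 and 10.74, 10.56 and 10.45 in C8, a difference of -0.43, and its neighbour Npat, a coactivator of histone genes, had -0.56.

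The list of ubiquitin and its relatives, which also held the gamma-secretase gene Aph1b at -0.41, gave 15 negative of 16 (median -0.42), with 9 past the threshold in the lower direction and Pml as the exception. Ube2q2, a ubiquitin-conjugating enzyme, had 11.17, 11.16 and 11.25 in H10 and 11.72, 11.77 and 11.73 in C8, a difference of -0.55, and the deubiquitinase gene Usp28 had -0.54. In the list of ribosome and translation, 10 of 10 were negative (median -0.39, range -0.62 to -0.22) and 5 were past the threshold. It also held Aagab, an adaptin-binding protein gene, at -0.43 and Rbm7, of nuclear RNA decay, at -0.38. The ribosomal protein genes were among the nearest to zero, with Rplp1 at -0.22 and Rpl4 at -0.23 at levels above 13, beside -0.45 for Imp3, a factor of ribosome assembly.

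In mitochondrial metabolism, all 14 members were negative with a median of -0.28, the lines were apart in 13, and 2 were past the threshold, Mto1 and the acetyl-CoA acetyltransferase gene Acat1 at -0.38. Of the 14, Fdx1 passed the brightness limit through C8 alone and had to be lower in H10. Its means were 7.66 in H10 and 7.94 in C8. The list of lysosome, lipid and glycan enzymes gave 14 of 14 negative (median -0.32) with 5 past the threshold, among them the mannose phosphate isomerase gene Mpi at -0.57 and the fatty acid elongase gene Elovl5 at -0.53. Pcsk7, a proprotein convertase at -0.58, and Gclc at -0.23 were counted in this list without having such a role. In vesicle traffic, 12 of 12 were negative (median -0.31, range -0.54 to -0.16) and 3 were past the threshold. Rab27a, a RAB GTPase of secretory lysosomes, had 9.25, 9.01 and 8.95 in H10 and 9.88, 9.44 and 9.50 in C8, a difference of -0.54, and Rab11a and Rab8b had -0.33 and -0.29.

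Positive members were in the immune and cytoskeletal lists as well as in that of ubiquitin. Of 17 immune and signalling genes, 12 were negative (median -0.26), the lines were apart in 9 downward and 4 upward, and 5 and 1 were past the threshold. Adam10 and Pstpip1 were its extremes, and Csk, the kinase that restrains SRC family kinases, had 10.84, 10.87 and 10.82 in H10 and 11.42, 11.35 and 11.28 in C8, a difference of -0.51. Of 10 genes listed under myosins, actin and the membrane skeleton, 7 were negative (median -0.35), with 4 and 1 past the threshold. Among the 4 was Arpp19, a phosphatase inhibitor gene at -0.35, which was counted in this list without having such a role. The pseudokinase gene Peak1 had -0.61, radixin (Rdx), which ties membranes to actin, -0.55, and the actin-capping gene Tmod3 -0.50, while Pstpip1, Anxa2 and Myo1e were positive.

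Signalling and sugar metabolism offered a final comparison with genes outside. Of 9 listed genes of several MAP kinase cascades, 6 were measured. Map2k1 (MEK1) had 11.34, 11.50 and 11.46 in H10 and 11.90, 11.82 and 11.82 in C8, a difference of -0.41. Map2k5 had -0.47 and Mapk6 -0.09, while the kinases of the list encoded elsewhere, Braf, Mapk7 and Map2k2, had -0.30, -0.16 and 0.10. The lines were apart for Braf and Mapk7 too, with adjusted p-values of 0.169 and 0.417 in limma. Pkm, the pyruvate kinase of glycolysis, had 13.17, 13.24 and 13.30 in H10 and 13.46, 13.46 and 13.51 in C8, a difference of -0.24, and 9 other glycolysis genes had a median of -0.01. Of the 6 members that do not encode protein, 4 were dim, with mean levels under 8.5, Snord16a had -0.66, and the abundant 7SK RNA gene Rn7sk had -0.01.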

How the data were processed

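The authors hybridized total RNA of H10 (n = 3) and C8 cells (n = 3) to Affymetrix Mouse Gene ST arrays and deposited log2 values after RMA, a background correction, quantile normalization and probe summary. Affymetrix Expression Console is the tool in the submitters' processing notes (version not given in the sources used here). Of 35545 features, 21781 had 1 gene symbol, 1621 several and 12143 none. Genes were ordered by RefSeq on GRCm38.p6 (21687 features matched by Entrez identifier), and the brightest feature stood for a gene. The comparison used limma 3.58.1 under R 4.3.3 (4 residual and 2.57 prior degrees of freedom, two-sided, Benjamini-Hochberg over all features, threshold 0.05), checked on simulated data. No feature was filtered out. The number of arrays limits the precision, and p-values measure the spread between arrays. The members, gene lists, complexes, markers and CpG limit were chosen with earlier results of these data known. Named genes were up to 12 of the largest non-overlapping differences in each direction (8 were higher), the ends, and leading members of each list with their partners; other members were named after their values were seen. Alternatives were leaving out arrays, the replicate number as a block, renormalization, centring, filters, other features, a trended robust prior, another adjustment and stricter thresholds. Plots used matplotlib 3.10.9 (Python 3.11.15).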

Additional observations from a re-analysis of the deposited data

How the results depend on the processing

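The count of 63 members lower in H10 past the limma threshold was 38 with each array centred on its median, 12 at an adjusted p under 0.01 and 105 where the fit kept only features that passed the table median on 3 or more arrays, which adjusts over fewer features. It was 84 with quantile normalization, 91 with a trended robust prior and 81 with the adjustment over 1 feature per gene. It ranged from 7 to 30 with 1 array left out. It was 14 without the replicate 1 arrays of both lines, a setting added after seeing the data. The count of 3 higher members was 5 with the filter and 1 at an adjusted p under 0.01, and ranged from 1 to 3 with 1 array left out. The cause was not tested for the centring. Over the 25 members named for their size or place, 266 of 325 values kept their side of the threshold, 45 lost it, 14 gained it and 0 changed sign.

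The median over the members was -0.18 with no brightness limit, which adds the dim genes, and -0.38 for genes above the upper quartile of 9.87. The replicate numbers did not pair the arrays: deviations of H10 and C8 arrays of the same number correlated at 0.17, 0.00 and -0.12. With the replicate number as a block 14 members were lower. H10 replicate 1 correlated best with C8 replicate 1, while replicates 2 and 3 did not with their own number. The 3 arrays of each line and signals near background limit what small differences can show.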
